A study of Mus musculus with 6 samples.

Results

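The genes of 10 RNA-binding proteins that steer alternative splicing and the stability of messenger RNA were followed through 9 cell types of the mouse hippocampus: Mbnl1, Mbnl2, Qk, Msi2, Rbfox1, Rbfox2, Rbfox3, Celf2, Celf4 and Nova1. They are 10 of the 31053 genes listed for each nucleus. The set was chosen from these same data, because Mbnl1, Mbnl2, Qk and Msi2 had appeared higher in several cell types after an inhibitor of histone deacetylases, so the inhibitor contrast in conditioned mice is given for the members as a description, without a test. The distribution across the cell types of vehicle mice and the contrast between exposures played no part in that choice and were tested.

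Each of these proteins binds short sequence elements in introns or in 3′ ends and, depending on where it sits relative to an exon, favours its inclusion or its skipping. Muscleblind (Mbnl) and CELF proteins are known as antagonists during development, with muscleblind proteins favouring adult isoforms. Rbfox and Nova proteins shape the isoforms of ion channels and synaptic proteins in neurons, Quaking (Qk) is needed for myelin gene transcripts in oligodendrocytes, and Musashi-2 (Msi2) is best known as a translational regulator of progenitor cells.

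Single nuclei from the hippocampus (labelled dentate gyrus) of male C57BL/6 mice aged 12 weeks were profiled in 6 droplet libraries, each a pool of 5 mice, 30 mice in all. Mice received CI-994, an inhibitor of class I histone deacetylases (HDACi), at 30 mg/kg, or its vehicle (Veh), 1 h before training, and tissue was taken 1 h later. Animals of the contextual fear conditioning (CFC) arm had 3 min to explore and then 2 foot shocks of 0.2 mA, whereas the Context arm was not shocked. Each drug had 2 libraries in the CFC arm (Veh-CFC and HDACi-CFC) and 1 library in the Context arm (Veh-Context and HDACi-Context). The library labelled Veh-Context carries the vehicle in its title and treatment label but the inhibitor in its description. It is called here by its title and treatment label. The tests between cell types and between exposures were repeated without it, whereas the mean levels, the profile correlations and the ratios of the Context pair include it. A replicate is therefore a pool, and in the inhibitor tests p-values measure the spread between pools. Between cell types they measure the spread of type sums taken from the same 3 vehicle pools. Between exposures each Context group had 1 pool, so its spread between pools was not measured. The spread used there comes from the CFC pools and from taking drug and exposure effects as additive.

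After filters 26839 of 30323 barcodes were kept, 3573 to 5334 per library, and total counts of unique molecular identifiers (UMIs) ranged from 24508202 to 45570814 per library. Between 1 and 11 barcodes were shared by each of the 15 pairs of libraries. Median genes per nucleus were 2772 and 3035 in the Veh-CFC libraries, 2218 and 2466 in the HDACi-CFC libraries, 2940 in Veh-Context and 2669.5 in HDACi-Context, so inhibitor libraries had fewer genes per nucleus. The part of that difference in the results below was not tested. Nuclei were assigned to types by marker scores that exclude every member, with score limits set after the score distributions were seen. This gave 7530 dentate granule (DG), 2683 CA1-like, 1294 CA3-like, 1262 interneuron-like and 798 subicular or cortical excitatory nuclei, and 2975 oligodendrocyte-like, 641 oligodendrocyte precursor (OPC)-like, 853 astrocyte-like and 1169 microglia-like nuclei. Another 7308 nuclei met no gate. They were 31.2% and 26.3% of nuclei in the Veh-CFC libraries and 23.4% and 22.7% in the HDACi-CFC libraries. The shares were 35.8% in Veh-Context and 24.1% in HDACi-Context. With a smaller ungated share under the inhibitor, a gated type may not hold the same kinds of nuclei in both groups, which was not tested. Within 0.1 of the score limit lay 1416 DG nuclei on the inside and 884 on the outside, and 104 and 67 microglia. Levels are in CPM, the UMIs of a gene as a share of all UMIs of a type within a library, brought to the usual common total after trimmed-mean (TMM) scaling. The scaling is computed within each comparison, so the same library has slightly different CPM in different comparisons, and levels are not compared between genes because 3′ UMI counts depend on the gene.

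All 10 members are protein-coding genes of GRCm38. Mbnl1 spans chr3:60472830-60629750 and Mbnl2 chr14:120275669-120431697 on the plus strand, and Qk spans chr17:10202601-10319854 and Msi2 chr11:88339382-88718513 on the minus strand. The longest members are Rbfox1, at 1526.2 kb (chr16:5885355-7411526, plus strand), and Celf2, at 969.9 kb (chr2:6539694-7509563, minus strand). Rbfox2 lies at chr15:77078990-77307004, Rbfox3 at chr11:118489762-118911597 and Nova1 at chr12:46694517-46818929, all on the minus strand. Mbnl2, Msi2, Rbfox2 and Rbfox3 each overlap 1 annotated gene on the other strand, and Celf2 and Celf4 each overlap 2, so for these a share of UMIs could be misassigned if strand was not used in counting.

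The 4 genes that led to the choice of the set have promoters of unlike composition, which is why their sequences are shown. Each window holds 300 bases, from 250 before to 50 after an annotated start, read 5′ to 3′ on the gene's strand from RefSeq GRCm38.p6. Capitals mark GGGCGG (a GC box), CACGTG (an E-box) and TGACG (the core of a cAMP response element) on either strand, and overlapping matches are merged. The windows are chr3:60472580-60472879 and chr3:60500929-60501228 for the 2 starts of Mbnl1 (plus), chr14:120275419-120275718 for Mbnl2 (plus), chr17:10319312-10319611 for Qk (minus) and chr11:88718228-88718527 for the first of 3 listed starts of Msi2 (minus).
Mbnl1 first start: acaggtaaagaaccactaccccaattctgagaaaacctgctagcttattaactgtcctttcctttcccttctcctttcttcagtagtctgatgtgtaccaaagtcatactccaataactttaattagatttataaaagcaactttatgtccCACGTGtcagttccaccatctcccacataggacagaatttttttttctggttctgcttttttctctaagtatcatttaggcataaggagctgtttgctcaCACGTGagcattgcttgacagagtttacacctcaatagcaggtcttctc
Mbnl1 second start: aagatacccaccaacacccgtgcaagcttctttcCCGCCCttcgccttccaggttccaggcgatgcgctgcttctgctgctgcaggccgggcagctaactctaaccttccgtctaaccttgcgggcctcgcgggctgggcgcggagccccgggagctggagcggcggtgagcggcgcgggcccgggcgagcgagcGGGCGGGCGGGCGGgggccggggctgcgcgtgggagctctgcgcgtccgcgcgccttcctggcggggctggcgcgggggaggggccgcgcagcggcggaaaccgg
Mbnl2: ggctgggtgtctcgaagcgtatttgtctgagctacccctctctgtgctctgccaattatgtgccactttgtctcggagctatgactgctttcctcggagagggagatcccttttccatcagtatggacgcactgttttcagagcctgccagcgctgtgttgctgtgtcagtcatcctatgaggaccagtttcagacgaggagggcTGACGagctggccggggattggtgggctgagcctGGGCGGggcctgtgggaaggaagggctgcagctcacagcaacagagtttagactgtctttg
Qk: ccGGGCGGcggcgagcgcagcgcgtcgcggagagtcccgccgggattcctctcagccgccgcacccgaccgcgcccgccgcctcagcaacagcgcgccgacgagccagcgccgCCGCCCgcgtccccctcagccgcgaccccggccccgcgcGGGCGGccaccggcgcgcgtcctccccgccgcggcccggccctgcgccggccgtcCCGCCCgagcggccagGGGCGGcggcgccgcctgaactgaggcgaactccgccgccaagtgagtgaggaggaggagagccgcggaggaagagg
Msi2: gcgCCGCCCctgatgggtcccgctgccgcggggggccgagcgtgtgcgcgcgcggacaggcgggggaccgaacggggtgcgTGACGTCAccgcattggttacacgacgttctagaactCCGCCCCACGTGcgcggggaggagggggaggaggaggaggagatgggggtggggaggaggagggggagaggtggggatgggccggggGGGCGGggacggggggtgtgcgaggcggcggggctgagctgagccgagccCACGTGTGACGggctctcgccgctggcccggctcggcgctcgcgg

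Qk had the most CG dinucleotides, 57, more than 99.8% of the 32851 promoters in the table, whose median is 7. The second start of Mbnl1 had 41 and the Msi2 start 39, whereas Mbnl2 had 10 and the first start of Mbnl1 had 2. GGGCGG matched 5 times in Qk, 4 times at the second Mbnl1 start, 3 times in Msi2 and 1 time in Mbnl2, and is present in 35.7% of all promoters. CACGTG matched 2 times at the first Mbnl1 start and 2 times in Msi2, against 7.2% of promoters with any match. TGACG matched 3 times in Msi2 and 1 time in Mbnl2 (20.8% of promoters). CCAAT, not capitalised, matched 2 times in Mbnl2 and 2 times at the first Mbnl1 start, and 1 time in Msi2 (37.4% of promoters), and TGACTCA, found in 5.2%, matched none of these windows. These are matches of letters, not measured sites.

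In vehicle mice the set split evenly between neurons and glia. Rbfox1, Rbfox2, Rbfox3, Celf2 and Celf4 were higher in neurons (mean of DG, CA1, CA3 and interneuron nuclei), and Mbnl1, Mbnl2, Qk, Msi2 and Nova1 were higher in glia (mean of oligodendrocytes, OPCs, astrocytes and microglia). The test was edgeR's quasi-likelihood test over all genes, with library as a block and Benjamini-Hochberg adjustment, at a threshold of 0.05. The background was 36.5% of all genes called higher in neurons and 25.9% higher in glia. The 5 and 5 calls, and the calls of single types given with an adjusted p in the following paragraphs, held without the library labelled Veh-Context.

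The widest contrast was that of Rbfox3, which encodes the neuronal nuclear antigen NeuN (log2 difference of neurons minus glia 4.45, SE 0.09, 21.8-fold, adjusted p = 5.31e-40 by edgeR). Rbfox1 followed with 4.10 (SE 0.06), Celf4 with 3.98 (SE 0.08), Celf2 with 2.66 (SE 0.05) and Rbfox2 with 1.87 (SE 0.06). On the glial side Qk stood at -3.31 (SE 0.05), 9.93-fold higher in glia. Mbnl1 and Nova1 both stood at -1.44 (SE 0.07 and 0.12), Msi2 at -1.16 (SE 0.06) and Mbnl2 at only -0.29 (SE 0.05).

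**Figure D1:**
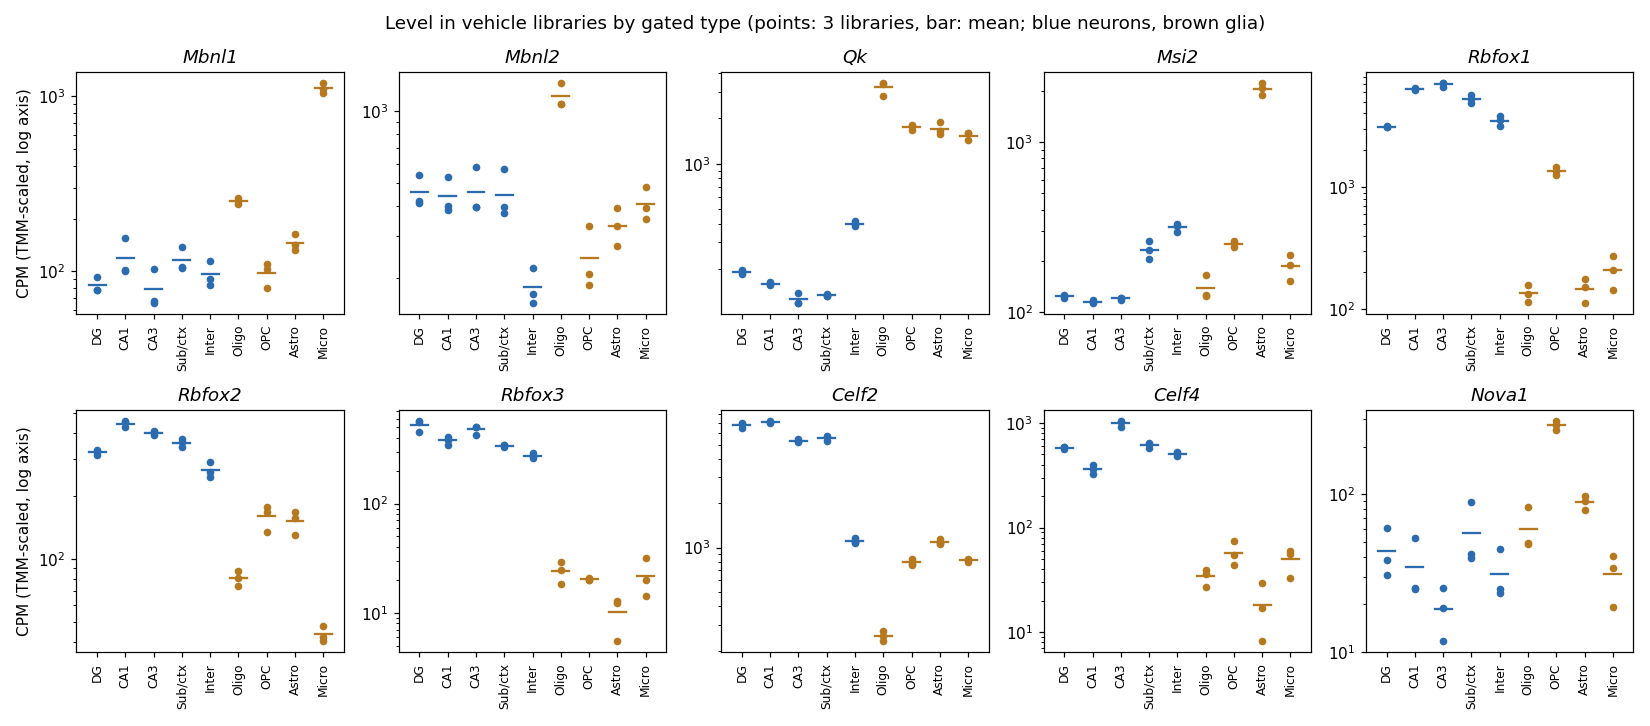
Level of each member in 9 cell types of the 3 vehicle libraries, in CPM on a log axis; points are libraries and lines are their means. Rbfox3 and Celf4 separate neurons from glia, Mbnl1 peaks in microglia, Msi2 in astrocytes and Nova1 in OPCs.

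Among the muscleblind genes, Mbnl1 was a microglial transcript in this tissue. Its levels in microglia were 1099 and 1039 CPM in the Veh-CFC libraries and 1193 CPM in Veh-Context, followed by oligodendrocytes at 252 ± 10.7 CPM (SD, n = 3) and astrocytes at 146 ± 16.4 CPM. The other types had means of 119 (CA1), 116 (subicular or cortical), 97.8 (OPC), 96.2 (interneuron), 82.9 (DG) and 78.9 CPM (CA3), each overlapping its neighbour in this order, whereas microglia and oligodendrocytes stood clear. Mbnl1 was higher in microglia than in the mean of the other types by 3.27 log2 units (SE 0.07, adjusted p = 4.18e-39 by edgeR), where 23.7% of genes were called higher.

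Mbnl2 had its peak in oligodendrocytes, with 1071, 1074 and 1314 CPM, 1.72 log2 units above the mean of the other types (SE 0.06, adjusted p = 5.7e-31 by edgeR). Means then ran from 458 in CA3, 457 in DG, 447 in subicular or cortical, 439 in CA1 and 408 in microglia to 332 in astrocytes, 242 in OPCs and 183 CPM in interneurons. Only oligodendrocytes did not overlap the next type. Interneurons were 1.28 log2 units below the others (value -1.28, SE 0.08, adjusted p = 2.35e-20 by edgeR), in a contrast where 16.8% of genes were called lower.

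Qk was found in all 4 glial types and led in oligodendrocytes, where the 3 libraries had 3449, 3390.3 and 2815 CPM. OPCs had 1757 ± 61.4, astrocytes 1709 ± 162 and microglia 1541 ± 96.0 CPM (SD, n = 3), with overlap from OPCs to astrocytes and from astrocytes to microglia. Interneurons had 399.6, DG 191, CA1 159.6, subicular or cortical nuclei 134 and CA3 126 CPM. The oligodendrocyte value was 2.94 log2 units above the mean of the other types (SE 0.05, adjusted p = 1.98e-43 by edgeR), where 26.6% of genes were called higher.

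Msi2 was an astrocyte transcript, at 2221, 2066 and 1885 CPM, 3.57 log2 units above the mean of the other types (SE 0.06, adjusted p = 5.94e-43 by edgeR, with 19.9% of genes called higher). Interneurons came next at 315 ± 16.3 CPM (SD, n = 3) and were called higher too, by 0.52 (SE 0.07, adjusted p = 1.62e-08 by edgeR). OPCs had 253, subicular or cortical nuclei 233, microglia 186, oligodendrocytes 139, DG 124, CA3 120.4 and CA1 115 CPM. From OPCs to DG each type overlapped the next.

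Rbfox1 was highest in CA3, at 7125, 6615 and 7097 CPM (2.67 above the mean of the other types, SE 0.06, adjusted p = 1.11e-36 by edgeR, with 29.6% of genes called higher). CA1 had 6365, subicular or cortical nuclei 5278, interneurons 3504 and DG 3123 CPM, with no overlap between neighbours. OPCs, which are glia, had 1356 ± 106 CPM (SD, n = 3), far above the 209 in microglia, 147 in astrocytes and 135 CPM in oligodendrocytes. The OPC level was not called different from the mean of the other types (0.02, SE 0.09, adjusted p = 0.955 by edgeR), and under a stricter gate it was called higher (0.35, adjusted p = 0.00412 by edgeR).

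Rbfox2, a broadly expressed member of the family, was highest in CA1, at 449, 426 and 456 CPM (1.31 above the mean of the other types, SE 0.06, adjusted p = 4.15e-25 by edgeR, with 30.6% of genes called higher). CA3 had 401, subicular or cortical nuclei 359, DG 324, interneurons 265, OPCs 160.0, astrocytes 152, oligodendrocytes 81.0 and microglia 43.6 CPM, and only OPCs and astrocytes overlapped.

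Rbfox3 was highest in DG, at 554, 570.1 and 449 CPM (2.68 above the mean of the other types, SE 0.07, adjusted p = 6.73e-35 by edgeR, with 31.4% of genes called higher). CA3 had 479, overlapping DG, then CA1 382, subicular or cortical nuclei 338 and interneurons 275 CPM. Glia had means of 10.2 in astrocytes to 24.0 CPM in oligodendrocytes, from 2 to 33 UMIs per library. The pan-neuronal markers Snap25, Syt1 and Meg3 were summed in the same vehicle libraries. Together they had 382 to 585 CPM in astrocytes, 496 to 993 in oligodendrocytes, 623 to 1324 in microglia and 973 to 1527 in OPCs. DG nuclei had 5017 to 6151 CPM. Free RNA was not measured, since only cell barcodes are listed, and its part in the low glial levels was not tested.

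Celf2 was highest in CA1, at 7029, 7080.1 and 7209 CPM (2.17 above the mean of the other types, SE 0.05, adjusted p = 7.65e-37 by edgeR). DG had 6804, subicular or cortical nuclei 5534 and CA3 5313 CPM. Interneurons were unlike the excitatory neurons: at 1109 CPM they overlapped astrocytes (1094 CPM) and were called lower than the mean of the other types (-0.85, SE 0.07, adjusted p = 2.12e-15 by edgeR). Microglia had 818, OPCs 793 and oligodendrocytes 251 CPM.

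Celf4 (chr18:25477632-25754157, minus strand) was highest in CA3, at 1019.7, 1042 and 926 CPM (2.87 above the mean of the other types, SE 0.07, adjusted p = 2.22e-36 by edgeR). Subicular or cortical nuclei had 617, DG 582, interneurons 508 and CA1 363 CPM, so the 2 CELF genes had CA1 at opposite ends of the neuronal order. Glial means of Celf4 ran from 18.2 in astrocytes to 57.4 CPM in OPCs.

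Nova1 was highest in OPCs, at 254, 273 and 289.8 CPM (2.78 above the mean of the other types, SE 0.13, adjusted p = 9.58e-24 by edgeR, with 15.2% of genes called higher). Astrocytes had 89.1, oligodendrocytes 59.9, subicular or cortical nuclei 56.7, DG 43.3, CA1 34.3, interneurons and microglia 31.1 each, and CA3 18.7 CPM. From astrocytes down each type overlapped the next. In every type, neuronal or glial, the library labelled Veh-Context was above both Veh-CFC libraries. For instance, it had 61.0 against 30.9 and 37.9 CPM in DG and 82.4 against 48.1 and 49.3 CPM in oligodendrocytes.

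The genes with the most similar profiles, by Pearson's r of log2 CPM over 27 sums (9 types in 3 libraries) among 5020 genes, differed between members. Sums of a type share its cells and sums of a library its depth, so these values describe the profiles only. Mbnl1 was nearest to Rbpj (0.94) and Extl3 (0.93), Mbnl2 to Secisbp2l (0.85) and Mast3 (0.84), Qk to Rab31 (0.97) and Phactr4 (0.96), and Msi2 to Clu (0.94) and Glud1 (0.92). Rbfox1 was nearest to Nrg3 and Ksr2 (both 0.98), Rbfox2 to Setbp1 (0.98) and Epha5 (0.97), Rbfox3 to Cdh8 and Kcnj6 (both 0.98), Celf2 to Prkag2 (0.97) and Nr3c2 (0.95), and Nova1 to Pcmtd2 (0.84) and Xrcc4 (0.83). Celf4 was nearest to Frmpd4 and to another member, Rbfox3 (both 0.97).

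The inhibitor contrast in conditioned mice set the 2 HDACi-CFC libraries against the 2 Veh-CFC libraries within each type. All 10 members passed the filter on low counts in all 9 types, and this contrast was the one used to choose them. Both inhibitor libraries were above both vehicle libraries for 8 members and below for 2 in DG (all genes: 35.5% above, 37.3% below), 8 and 2 in CA1 (32.4%, 35.5%), 8 and 1 in CA3 (30.7%, 32.0%), 9 and 1 in interneurons (30.8%, 32.3%) and 8 and 1 in subicular or cortical nuclei (27.9%, 30.5%). In oligodendrocytes the counts were 8 and 2 (33.3%, 36.3%), in OPCs 6 and 1 (32.0%, 32.8%), in astrocytes 6 and 1 (31.9%, 33.3%) and in microglia 6 and 1 (33.6%, 34.6%). The median log2 fold change of the members lay between 0.49 in CA3 and 0.68 in oligodendrocytes, against -0.03 to 0.01 for all genes tested. These values rest on TMM scaling, which holds the typical gene level. Scaling by library size lowered the median gene by 0.26 to 0.36 log2 units, and scaling per nucleus by 0.35 to 0.50 units (values -0.26, -0.36, -0.35 and -0.50).

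**Figure D2:**
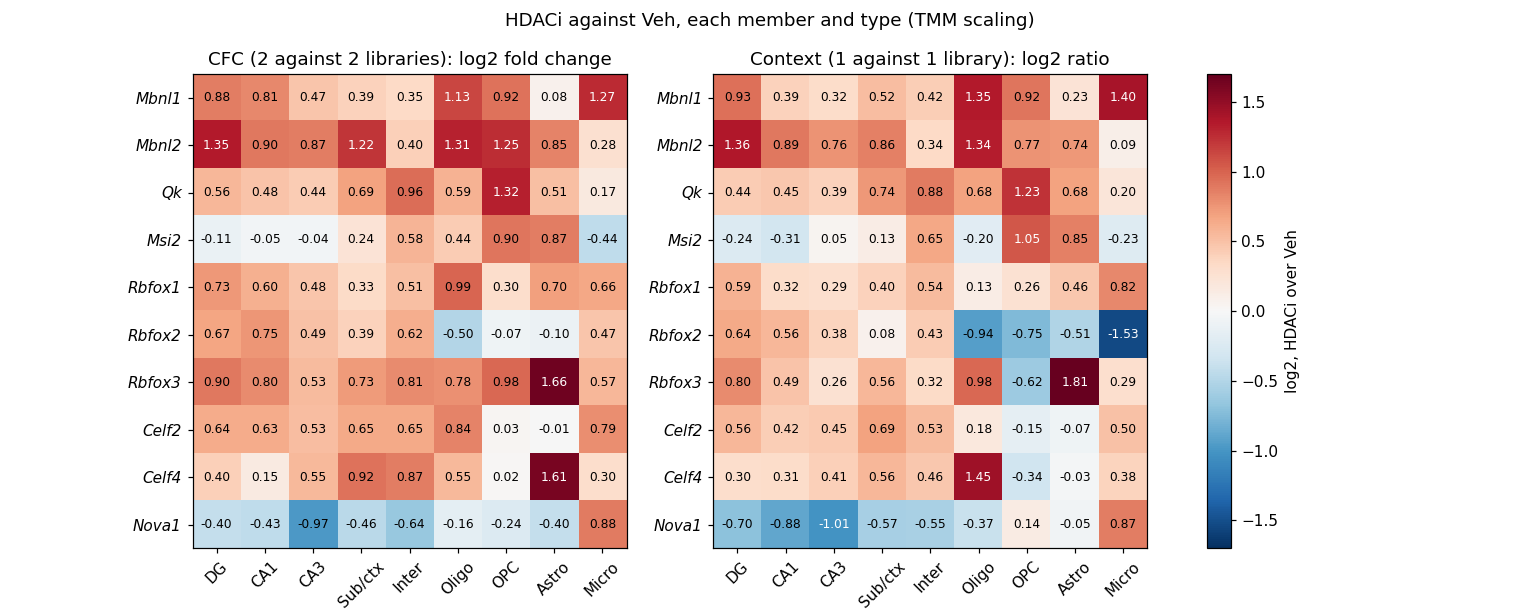
Log2 fold change of inhibitor over vehicle for the 10 members (rows) in 9 gated types (columns), in conditioned mice (left, 2 against 2 libraries) and in the Context pair (right, 1 against 1 library); red is higher and blue lower with the inhibitor. Mbnl2 is positive in every type, Nova1 is negative in 8 of 9 types of the conditioned mice, and Msi2 differs in sign between types.

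Mbnl2 had the largest difference in DG nuclei. It stood at 338 and 333 CPM in the Veh-CFC libraries and at 852 and 857 CPM in the HDACi-CFC libraries, a log2 fold change of 1.35 (SE 0.06), or 2.55-fold. The groups were far apart compared with the spread inside either. In oligodendrocytes, where Mbnl2 is highest, the levels were 936 and 929 against 2355 and 2277 CPM (1.31, SE 0.08). OPCs (1.25, SE 0.17) and subicular or cortical nuclei (348 and 323 against 776 and 782 CPM, 1.22, SE 0.14) were close to these, and CA1, CA3 and astrocytes had 0.90, 0.87 and 0.85. Interneurons, the type with the lowest baseline level, had 143 and 155 against 189.8 and 203 CPM (0.40, SE 0.12), and microglia 502 and 437 against 549.7 and 572 CPM (0.28, SE 0.16). These 2 smallest differences turned negative under scaling per nucleus (-0.047 in interneurons and -0.21 in microglia).

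The share of DG nuclei with at least 1 Mbnl2 UMI is given as a further description of the same contrast. Such a share largely follows the mean level, and free RNA was not measured, so it does not separate nuclei that express the gene from those that do not. With each nucleus thinned to 2000 UMIs, 52.4% and 52.5% of DG nuclei in the Veh-CFC libraries and 75.7% and 76.1% in the HDACi-CFC libraries had at least 1 Mbnl2 UMI, at median depths of 6238 and 7162 and of 5639 and 6497 UMIs before thinning. Without thinning the shares were 87.7%, 91.0%, 96.3% and 96.8%. In interneurons, the type with the lowest level, the thinned shares were 26.5%, 28.2%, 26.9% and 28.4% (median depths 7619, 9091, 6720 and 8373 UMIs), and the groups overlapped. Thinning left out at most 16 DG nuclei and 6 interneurons per library of the conditioned mice.

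Mbnl1, the other muscleblind gene, had its largest difference in microglia, its type of highest expression. The Veh-CFC libraries had 1408 and 1288 CPM and the HDACi-CFC libraries 3287 and 3219 CPM, a log2 fold change of 1.27 (SE 0.11). Oligodendrocytes had 221 and 208 against 444 and 489 CPM (1.13, SE 0.11), OPCs 84.8 and 117 against 172 and 213 CPM (0.92, SE 0.23), DG 62.6 and 63.0 against 112 and 118 CPM (0.88, SE 0.08) and CA1 80.4 and 81.6 against 127 and 156 CPM (0.81, SE 0.11). CA3 (0.47), subicular or cortical nuclei (0.39) and interneurons (0.35) had smaller differences in which the second inhibitor library was the higher. Subicular or cortical nuclei had 91.6 and 91.5 against 93.5 and 137 CPM, and interneurons 76.4 and 82.1 against 83.6 and 115 CPM. In these last 2 types the first inhibitor library lay near the vehicle libraries. Their differences turned negative under scaling per nucleus, to -0.067 and -0.098. In astrocytes the groups overlapped, with 148 and 134 against 117 and 169 CPM (0.08, SE 0.22).

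**Figure D3:**
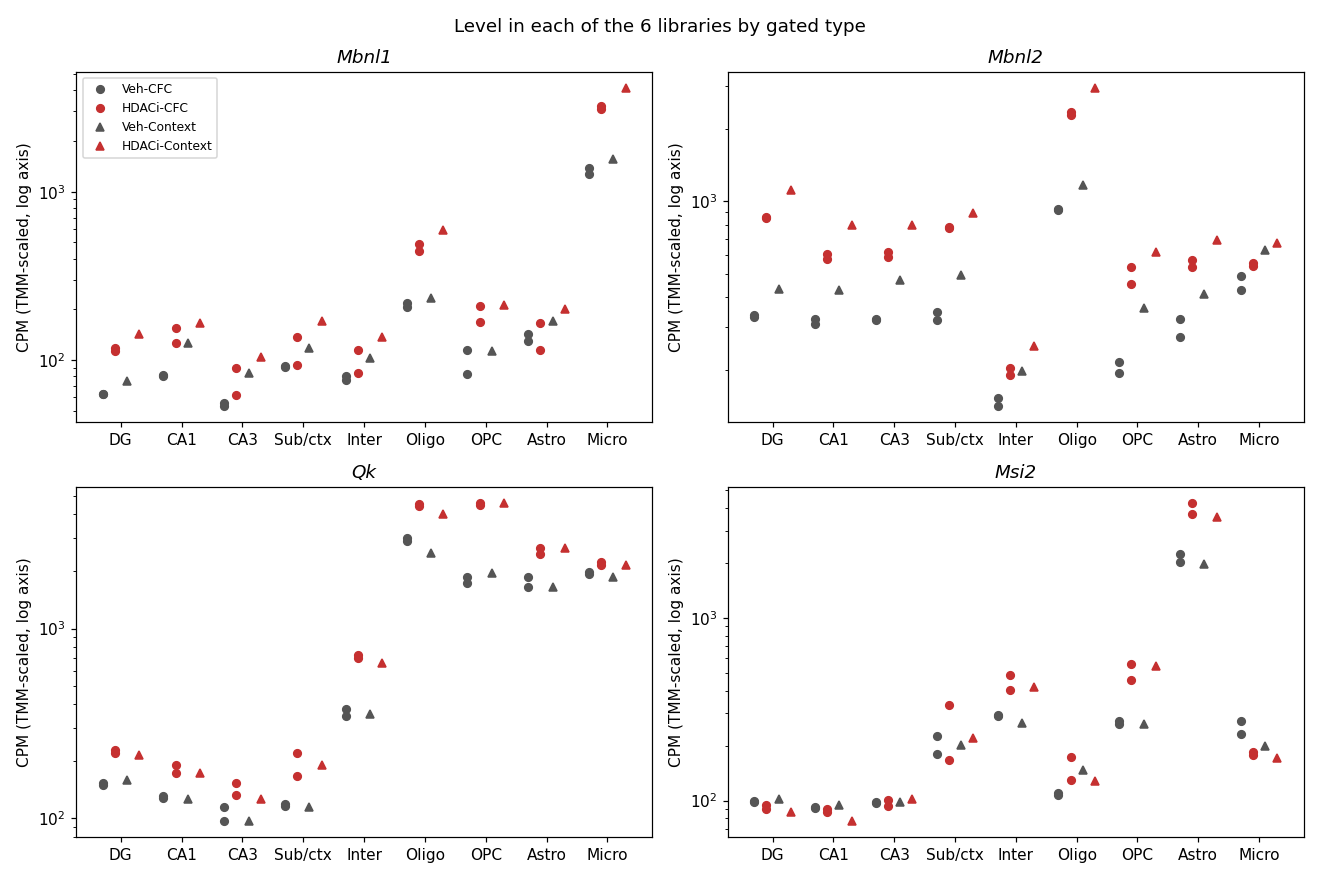
Level of Mbnl1, Mbnl2, Qk and Msi2 in each of the 6 libraries by gated type, in CPM scaled over all 6 libraries, on a log axis; red is inhibitor, grey vehicle, circles CFC and triangles Context. For Mbnl2 in DG nuclei the inhibitor libraries lie between 856 and 1115 and the vehicle libraries between 333 and 434.

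Qk, whose isoforms act in the nucleus and in the cytoplasm, was higher in every type, and most of all in OPCs. There it had 1791 and 1907 CPM in the Veh-CFC libraries and 4573 and 4683 CPM in the HDACi-CFC libraries (1.32, SE 0.11). Interneurons followed with 379.7 and 349 against 690.2 and 721 CPM (0.96, SE 0.11). In oligodendrocytes, with the highest Qk level, the values were 3014 and 2933 against 4537 and 4409 CPM (0.59, SE 0.07). Subicular or cortical nuclei had 0.69, DG 0.56, astrocytes 0.51, CA1 0.48 and CA3 0.44. Microglia had 0.17 (SE 0.11), and this direction flipped to -0.085 under library-size scaling and -0.31 per nucleus.

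Msi2 differed in sign between types. In astrocytes, where it is most abundant, it had 2313 and 2099 CPM with vehicle and 4304 and 3777 CPM with inhibitor (0.87, SE 0.11). OPCs had 269.7 and 279.5 against 569 and 469 CPM (0.90, SE 0.16), interneurons 293 and 297 against 484 and 401 CPM (0.58, SE 0.12) and oligodendrocytes 111 and 108 against 175 and 129.7 CPM (0.44, SE 0.16, but -0.064 per nucleus). In microglia both inhibitor libraries were below both vehicle libraries, with 278 and 235 against 181 and 189.9 CPM (-0.44, SE 0.21). DG had 98.2 and 100.1 against 94.3 and 90.0 CPM (-0.11, SE 0.08). CA1 had 91.1 and 92.5 against 86.8 and 90.5 CPM (-0.05, SE 0.10). In both types the gap between the groups was smaller than the spread of the inhibitor libraries. In CA3 and subicular or cortical nuclei the groups overlapped. The 9 astrocyte markers moved with Msi2 and Qk in the OPC sums, where they together had 816 to 894 CPM in the Veh-CFC and 1742 to 2211 CPM in the HDACi-CFC libraries, with at most 1 marker at 0. Their part in the OPC values was not tested.

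The Rbfox genes were higher with the inhibitor in neurons. Rbfox1 in DG had 2534 and 2501 against 4062 and 4303 CPM (0.73, SE 0.05), and it was apart in the higher direction in all 9 types, from 0.30 in OPCs to 0.99 in oligodendrocytes. The OPC value flipped to -0.034 under library-size scaling and -0.13 per nucleus, and that of subicular or cortical nuclei (0.33) to -0.12 per nucleus. Rbfox3 in DG had 446 and 461 against 873 and 818 CPM (0.90, SE 0.06), with 0.81 in interneurons, 0.80 in CA1, 0.73 in subicular or cortical nuclei and 0.53 in CA3.

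Rbfox2 in CA1 had 362 and 343 against 634 and 554 CPM (0.75, SE 0.08), with 0.67 in DG, 0.62 in interneurons, 0.49 in CA3 and 0.39 in subicular or cortical nuclei, where it flipped to -0.053 per nucleus. In oligodendrocytes Rbfox2 was lower, with 70.7 and 75.7 against 68.1 and 41.9 CPM (-0.50, SE 0.22), mostly in the second inhibitor library. OPCs and astrocytes overlapped between groups (-0.07 and -0.10). Microglia had 0.47 (SE 0.36, -0.011 per nucleus) on 13 to 28 UMIs per library.

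Some of the highest fold changes of neuronal members came from the few UMIs in glia. Rbfox3 in astrocytes had 1.66 (SE 0.47) on 2 and 6 UMIs with vehicle and 12 and 18 with inhibitor, and Celf4 had 1.61 (SE 0.44) on 3 and 8 against 12 and 28 UMIs. In the same astrocyte sums the 3 pan-neuronal markers together had 579 to 585 CPM in the Veh-CFC libraries and 850.3 to 875 CPM in the HDACi-CFC libraries. The 3 pan-excitatory markers also rose there (169 to 172 against 280 to 372 CPM). The 8 DG markers overlapped between groups (998 to 1035 against 805 to 1006 CPM). So did the CA1, CA3, interneuron and subicular or cortical markers. In oligodendrocytes, where Rbfox1 had 0.99, the pan-neuronal markers had 859 to 993 against 1110.1 to 1124 CPM. The DG markers rose there too (3515 to 3617 against 4929 to 5192 CPM), and the CA1 markers fell (423 to 466 against 305 to 337 CPM). In microglia the pan-neuronal markers had 1114 to 1324 against 1532 to 1556 and the DG markers 1514 to 1542 against 2055 to 2073 CPM. The CA1 markers fell there as well (630 to 685 against 319 to 369 CPM). The part of these markers in the glial values of Rbfox1, Rbfox3, Celf2 and Celf4 was not tested.

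Among the CELF genes, Celf2 in DG had 5548 and 5661 against 8472 and 8962 CPM (0.64, SE 0.05), and the other neuronal types lay between 0.53 in CA3 and 0.65 in interneurons and in subicular or cortical nuclei. Oligodendrocytes had 0.84 and microglia 0.79, while OPCs (0.03) and astrocytes (-0.01) overlapped. Celf4 had 566 and 546 against 1188 and 925 CPM in subicular or cortical nuclei (0.92, SE 0.16), 0.87 in interneurons, 0.55 in CA3 and 0.40 in DG, the last flipping to -0.10 per nucleus. In CA1 it had 319 and 295 against 357 and 326 CPM (0.15, SE 0.09), a direction that flipped to -0.20 under library-size scaling and -0.28 per nucleus.

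Nova1 was the member with the opposite direction. It was below in both inhibitor libraries in 8 of the 9 types, at low levels. DG had 24.9 and 30.7 against 18.7 and 23.3 CPM (-0.40, SE 0.15), CA1 20.2 and 20.4 against 16.0 and 14.4 CPM (-0.43, SE 0.18) and CA3 15.7 and 9.56 against 7.02 and 5.66 CPM (-0.97, SE 0.35) on 15 to 26 UMIs per library. In OPCs, its type of highest expression, it had 269.7 and 291 against 234 and 243 CPM (-0.24, SE 0.18). Oligodendrocytes had 42.0 and 42.6 against 31.0 and 41.9 CPM (-0.16, SE 0.23). Astrocytes had 93.7 and 81.0 against 46.7 and 77.9 CPM (-0.40, SE 0.29). Interneurons had 22.9 and 21.4 against 7.27 and 19.1 CPM (-0.64, SE 0.34). In oligodendrocytes, astrocytes, interneurons and DG the gap between the groups was smaller than the spread of the inhibitor libraries. Microglia overlapped between groups (0.88, SE 0.43) on 5 to 27 UMIs per library.

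The Context pair, 1 library per group, shared no library with the conditioned mice. It allows no test, and its ratios are given with 95% intervals that cover counting error only. In DG the interval lay above a ratio of 1 for 8 members and below for 2 (all genes: 28.8% and 28.7%), in CA1 for 8 and 2 (21.8%, 20.1%), in CA3 for 8 and 1 (20.9%, 19.0%), in interneurons for 9 and 1 (19.9%, 16.7%) and in subicular or cortical nuclei for 7 and 1 (18.3%, 11.7%). In oligodendrocytes the counts were 5 and 1 (20.6%, 17.0%), in OPCs 5 and 1 (16.8%, 12.6%), in astrocytes 5 and 0 (15.7%, 12.1%) and in microglia 4 and 1 (18.3%, 14.3%).

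Mbnl2 in DG had 434 CPM in Veh-Context and 1115 CPM in HDACi-Context, a log2 ratio of 1.36 (interval 1.31 to 1.41), and in oligodendrocytes 1.34 (1.25 to 1.42), next to 1.35 and 1.31 in the conditioned mice. Mbnl1 in microglia had 1.40 (1.25 to 1.55) and in oligodendrocytes 1.35 (1.15 to 1.55), and Qk in OPCs 1.23 (1.09 to 1.36). For Mbnl1, Mbnl2, Qk and Rbfox1 the direction matched that in conditioned mice in 9 of 9 types. It matched in 8 types for Rbfox2, Rbfox3, Celf2 and Nova1 and in 7 for Msi2 and Celf4. The share of all genes with a matching direction is not given here, so these counts only describe the members. The choice of the set may also have drawn on the Context pair. Under library-size scaling the Context direction flipped for Celf4 in DG (-0.043), Rbfox1 in OPCs (-0.067) and Qk in microglia (-0.051).

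Msi2 had the same sign as in conditioned mice, with an interval clear of 0, in 5 types of the Context pair, with 0.85 (0.73 to 0.98) in astrocytes, 1.05 (0.68 to 1.44) in OPCs, 0.65 (0.51 to 0.80) in interneurons, -0.24 (-0.36 to -0.12) in DG and -0.31 (-0.51 to -0.10) in CA1. In microglia the interval spanned 0 (-0.23, -0.77 to 0.31). In oligodendrocytes the Context value was -0.20 (-0.52 to 0.12) against 0.44 in conditioned mice. Rbfox2 was lower in oligodendrocytes (-0.94, -1.51 to -0.38) and OPCs (-0.75, -1.33 to -0.17). Nova1 was lower in DG (-0.70, -0.89 to -0.51), CA1 (-0.88, -1.23 to -0.53) and CA3 (-1.01, -1.58 to -0.46). If the library labelled Veh-Context was in fact an inhibitor library, as its description says, these ratios would not measure the inhibitor.

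Other regulators of splicing, a list of 77 genes without the members, showed called changes in both directions (edgeR's quasi-likelihood test over all genes, Benjamini-Hochberg adjusted, 2 against 2 libraries). In DG 22 of 71 tested genes rose and 13 fell (all genes: 22.9% and 25.6%). In CA1 21 of 71 rose and 8 fell (18.3%, 18.4%), in interneurons 17 of 70 rose and 2 fell (14.8%, 10.6%), in oligodendrocytes 21 of 63 rose and 5 fell (19.8%, 18.1%) and in astrocytes 5 of 53 rose and 4 fell (14.9%, 12.1%). The list's median log2 fold changes were 0.10, 0.06, 0.21, 0.22 and 0.18 in that order. The split depended on scaling: by library size the calls were 7 higher and 38 lower in DG, 6 and 30 in CA1, 6 and 10 in interneurons, 9 and 18 in oligodendrocytes, and 1 and 12 in astrocytes. Over all genes in DG the same change of scaling turned 3503 higher and 3912 lower calls into 1505 and 6816. For the runs without 1 library that follow, the calls over all genes are not given here. Without Veh-CFC replicate 1 the higher calls numbered 10 in DG, 11 in CA1 and 0 in astrocytes, and the lower calls 7 in DG, 1 in interneurons, 1 in oligodendrocytes and 0 in astrocytes. Without Veh-CFC replicate 2 there were 1 higher call in astrocytes and 6 lower calls in DG, 4 in CA1, 1 in interneurons, 3 in oligodendrocytes and 0 in astrocytes. Without HDACi-CFC replicate 2 the lower calls numbered 1 in oligodendrocytes and 1 in astrocytes, and without HDACi-CFC replicate 1 there was 1 in astrocytes.

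**Figure D4:**
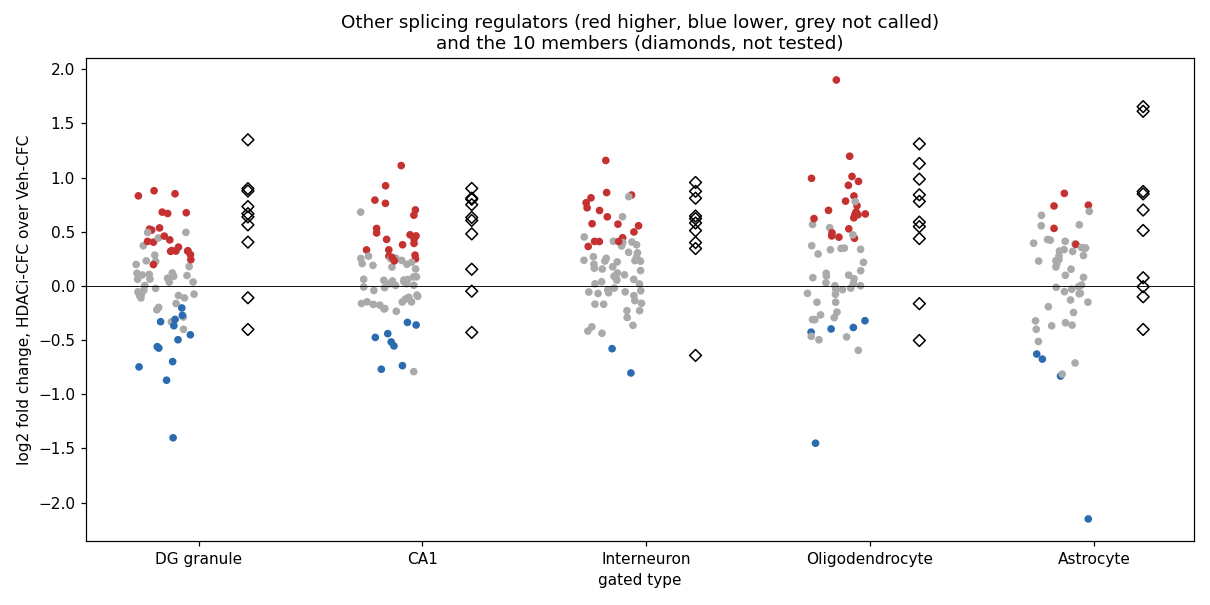
Log2 fold change of inhibitor over vehicle in conditioned mice for each tested gene of the list of other splicing regulators in 5 gated types, with called higher in red, called lower in blue and not called in grey; open diamonds are the 10 members, which were not tested. In DG 22 points are red and 13 blue.

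Srsf9, a serine/arginine-rich splicing factor, rose in DG from 31.9 and 33.5 to 53.1 and 66.5 CPM (0.88, SE 0.12, adjusted p = 7.76e-06 by edgeR). Rbm24 (0.85), the CELF gene Celf3 (0.83), Hnrnpu and the speckle protein gene Srrm2 (both 0.68) and Ptbp3 of the polypyrimidine tract binding family (0.67) also rose. Srsf7, of the same family as Srsf9, fell in DG from 251 and 296 to 135 and 164 CPM (-0.87, SE 0.09, adjusted p = 7.13e-07 by edgeR), with Taf15 (-0.75), Raver2 (-0.70), Pcbp3 (-0.56), Srsf6 (-0.50) and Srsf12 (-0.45). Msi1, the paralogue of Msi2, was also called lower in DG (-1.40, adjusted p = 0.000597 by edgeR). It was below the level set for naming genes and was chosen after its values were seen.

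In CA1 Khdrbs3, a STAR-family protein related to Qk, rose from 928 and 978 to 2096 and 2025 CPM (1.11, SE 0.07, adjusted p = 9.52e-10 by edgeR), and Srsf9 rose too (0.92), while Pcbp3 (-0.77) and Srsf12 (-0.74) fell. In interneurons Srrm4, a driver of neuronal microexon inclusion, rose from 212 and 198 to 537 and 384 CPM (1.16, SE 0.14, adjusted p = 5.74e-05 by edgeR) with Hnrnpc (0.86), and Srsf7 (-0.80) and Rbm10 (-0.58) fell. In oligodendrocytes Srrm4 (1.90, on 7 to 26 UMIs per library) and Celf3 (1.20) rose, and Pcbp3 (-1.45) and Celf1 (-0.43) fell. In astrocytes Hnrnpc (0.85) and Msi1 (0.75) rose, and Ptbp3 (-2.15, on 3 to 21 UMIs per library) and Khdrbs1 (-0.83) fell.

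Core spliceosome genes in DG, which encode the general machinery instead of regulators, were called in both directions: 10 of 40 rose and 9 fell, near the shares of all genes there (22.9% and 25.6%), with a median of -0.14. Under library-size scaling 3 rose and 22 fell. Without Veh-CFC replicate 1 or 2, 6 rose and 5 fell. The small ribonucleoprotein genes Snrpf (0.98) and Snrpb (0.65) and the branch-site factor Sf3b1 (0.56) rose. Dhx16 (-1.13), Aqr (-0.96) and Cdc5l (-0.87) fell.

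Exposure was tested by setting the 4 CFC libraries against the 2 Context libraries in edgeR's quasi-likelihood test with the drug as a covariate. The Context files name a later version of Cell Ranger than the CFC files, and with this design exposure and any separate preparation of the Context pair cannot be told apart. In DG 2 members were called higher in CFC and 3 lower (all genes: 19.7%, 21.6%), in CA1 1 and 3 (17.0%, 18.8%), in CA3 2 and 3 (18.0%, 16.5%), in interneurons 1 and 3 (13.2%, 12.7%) and in subicular or cortical nuclei 0 and 3 (9.32%, 9.29%). In oligodendrocytes the counts were 2 and 2 (8.63%, 11.7%), in OPCs 0 and 1 (4.22%, 6.64%), in astrocytes 0 and 0 (4.63%, 6.95%) and in microglia 1 and 2 (5.16%, 8.35%). For the counts of 0 in edgeR, unadjusted p was under 0.05 for 1 member higher in subicular or cortical nuclei, 0 higher in OPCs, and 0 higher and 2 lower in astrocytes, and DESeq2 called 0 in each.

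**Figure D5:**
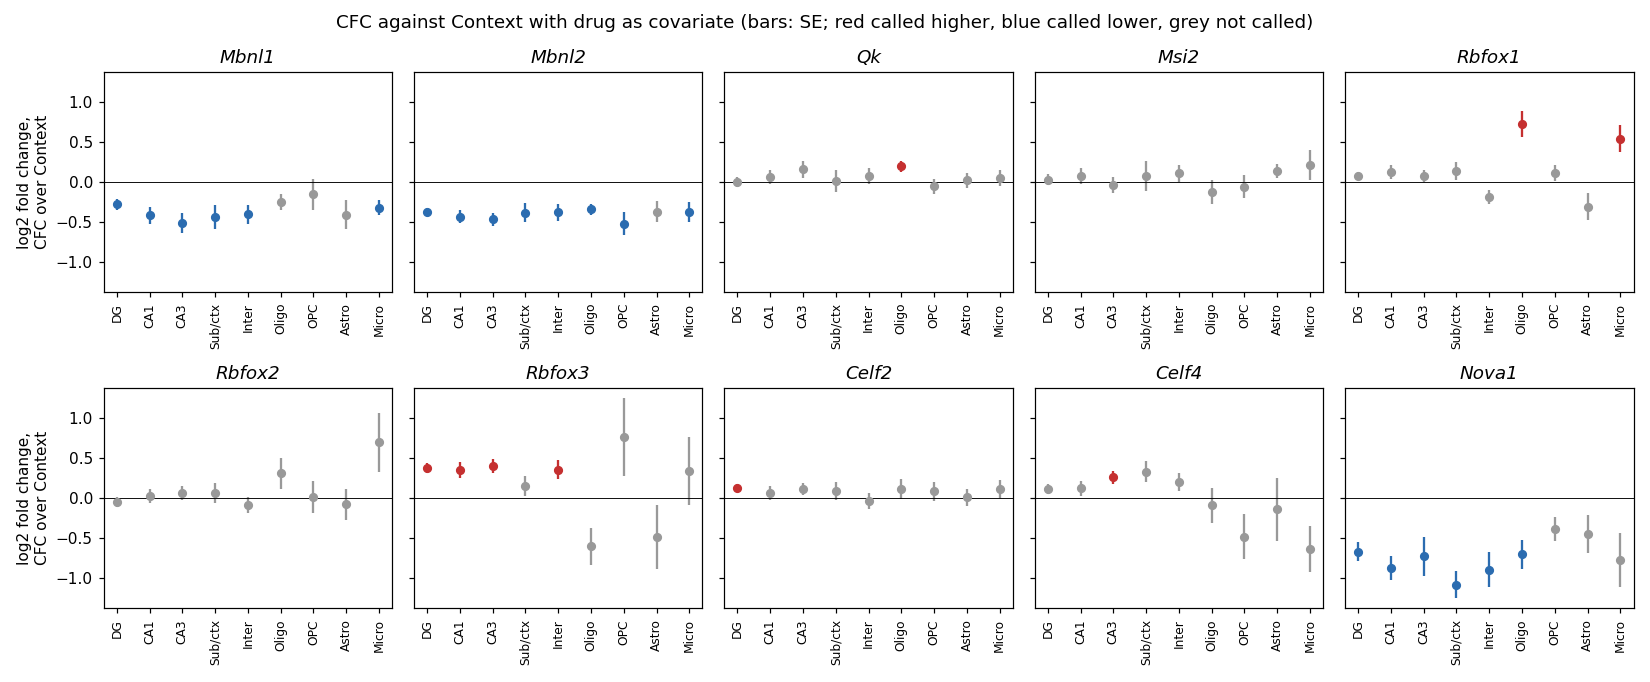
Log2 fold change of CFC over Context for each member (panels) in 9 gated types, with the drug as covariate; bars are standard errors, and points are red where called higher, blue where called lower and grey where not called. Mbnl2 lies between -0.35 and -0.52 in the 8 types where it was called.

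Mbnl2 was lower in CFC in 8 of 9 types, by -0.35 to -0.52. In DG it had 338 and 333 CPM in Veh-CFC and 434 in Veh-Context, and 856 and 858 CPM in HDACi-CFC and 1115 in HDACi-Context (-0.38, SE 0.05, adjusted p = 4.84e-05 by edgeR). Under both treatments the Context library was above both CFC libraries. The call held in DG, CA1, CA3 and oligodendrocytes in each alternative run, also without either Context library. It was lost in interneurons (adjusted p = 0.0867), OPCs (0.337) and microglia (0.449) without Veh-Context and, without HDACi-Context, in interneurons (0.0588) and microglia (0.167) by edgeR. In subicular or cortical nuclei it was lost without any of Veh-Context (0.536), HDACi-Context (0.0544), Veh-CFC replicate 1 (0.11) and Veh-CFC replicate 2 (0.149), and in microglia also without Veh-CFC replicate 1 (0.0593) or 2 (0.171), as adjusted p by edgeR.

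Mbnl1 was lower in CFC in 6 types, by -0.28 to -0.52, with CA3 at 55.7 and 53.2 (Veh-CFC), 62.3 and 89.2 (HDACi-CFC), 83.7 (Veh-Context) and 104.1 CPM (HDACi-Context) (-0.52, SE 0.13, adjusted p = 0.00269 by edgeR). The CA3 call held in each alternative run. Without HDACi-Context the calls were lost in DG (adjusted p = 0.101), microglia (0.422), interneurons (0.168) and subicular or cortical nuclei (0.3), and without Veh-Context in CA1 (0.221), interneurons (0.0768) and subicular or cortical nuclei (0.172), by edgeR. Without Veh-CFC replicate 1 those in interneurons (0.0535) and subicular or cortical nuclei (0.0964) were lost, and without replicate 2 the latter (0.102). The 10 microglial markers together were lower in every CFC than in either Context library in each neuronal type where Mbnl1 was called, with 74 to 98 against 167 to 284 CPM in CA1, 83 to 112 against 181 to 291 in CA3, 112 to 144 against 244 to 385 in DG, 114 to 183 against 221 to 405 in interneurons and 89 to 113 against 175 to 317 CPM in subicular or cortical nuclei. In these types they moved in the direction of Mbnl1 and Mbnl2. In microglia, where both genes were also called lower in CFC, the markers went the other way. They had 20534 to 21722 CPM in the CFC libraries, 14898 in Veh-Context and 18635 CPM in HDACi-Context. Their part in the calls was not tested.

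Nova1 was lower in CFC in 6 types, by -0.67 to -1.08. In DG it had 24.9 and 30.6 CPM in Veh-CFC and 49.2 in Veh-Context, and 18.8 and 23.3 CPM in HDACi-CFC and 30.3 in HDACi-Context (-0.67, SE 0.12, adjusted p = 0.000327 by edgeR). The calls in DG, CA1 (-0.87) and subicular or cortical nuclei (-1.08) held in each alternative run. Without Veh-Context those in CA3 (adjusted p = 0.166), interneurons (0.0623) and oligodendrocytes (0.18) were lost, and without HDACi-Context that in CA3 (0.094), by edgeR. The CA3 call was also lost without Veh-CFC replicate 2 (0.103) and HDACi-CFC replicate 2 (0.0587).

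Rbfox3 went the other way and was higher in CFC in DG, CA1, CA3 and interneurons, by 0.35 to 0.40. In DG it had 447 and 459.6 CPM in the Veh-CFC libraries against 362 CPM in Veh-Context, and 877 and 818 CPM in the HDACi-CFC libraries against 631 CPM in HDACi-Context (0.38, SE 0.06, adjusted p = 0.000129 by edgeR). This call held in each alternative run. Without HDACi-Context the calls in CA1 (adjusted p = 0.142), CA3 (0.135) and interneurons (0.671) were lost by edgeR. The interneuron call was also lost without HDACi-CFC replicate 1 (0.0534) or 2 (0.0658). The 3 pan-neuronal markers together were higher in every CFC than in either Context library in the same types, with 5949 to 6903 against 5017 to 5827 CPM in DG, 15231 to 16599 against 11472 to 12891 in CA1, 15183 to 17234 against 12073 to 14087 in CA3 and 20713 to 23545 against 15749 to 17739 CPM in interneurons. Their part in the Rbfox3 calls was not tested.

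Single calls concerned Rbfox1, higher in oligodendrocytes (0.73) and microglia (0.54), Celf4 in CA3 (0.26), Qk in oligodendrocytes (0.19) and Celf2 in DG (0.13). Each was lost by edgeR without HDACi-Context, with adjusted p of 0.371 and 0.0817 (Rbfox1), 0.239 (Celf4), 0.069 (Qk) and 0.108 (Celf2). Without Veh-Context Qk (0.28) and Rbfox1 in microglia (0.2) were lost, and Rbfox1 (0.27) and Celf2 (0.17) were called higher in CA1 instead. Qk was also lost without each of Veh-CFC replicates 1 and 2 and HDACi-CFC replicate 1 (0.145, 0.112 and 0.0665), Celf2 without Veh-CFC replicate 1 (0.092) and HDACi-CFC replicate 1 (0.0972), and Rbfox1 in microglia without Veh-CFC replicate 1 (0.0749). The pan-neuronal markers in oligodendrocytes had 859 to 1124 CPM in CFC libraries and 492 to 496 CPM in Context libraries, and in microglia 1114 to 1556 against 599 to 623 CPM, so they moved with Rbfox1 in both types, and their part in its calls was not tested. Msi2 and Rbfox2 were called in none of the 9 types by edgeR, but Rbfox2 in microglia was called higher without Veh-Context (1.92, adjusted p = 0.0173), on the 6 UMIs of HDACi-Context.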

How the data were processed

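Raw UMI counts per gene and cell barcode were deposited by the authors for 6 libraries. Per the file headers they come from Cell Ranger 3.0.1 (CFC) and 3.0.2 (Context), and the submitters' processing notes name mm10 and Seurat 4.0.3. Whether introns and strand were counted is not given in the sources used here. Barcodes under 500 genes or over 5% mitochondrial UMIs were dropped, as were 927 doublets marked by Scrublet in scanpy 1.11.5. Types were gated on scaled marker scores (at least 0.5, margin 0.2, 3 markers), and 9 types with at least 30 nuclei in each library were compared. UMIs were summed per library and type and tested with edgeR 4.0.16 (filterByExpr, TMM, quasi-likelihood, two-sided, Benjamini-Hochberg over all genes tested). The members and gene lists were chosen with earlier results of these data known. Named other regulators were those called with the highest and lowest log2 fold change whose groups did not overlap and whose mean log2 CPM reached 3: 6 and 6 in DG, 2 and 2 in each other type, and 3 and 3 core spliceosome genes. Of the listed genes 31011 of 31053 (99.9%) matched GENCODE M21, and 8 of 10 members have a RefSeq promoter entry. Alternatives were library-size and per-nucleus scaling, DESeq2 1.42.0, no filter, a stricter gate, a replicate block and leaving out each library. The scripts were tested on simulated data.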

Additional observations from a re-analysis of the deposited data

Results flagged for a closer look

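Msi2 differed in sign between types of the conditioned mice, and in 7 types all inhibitor libraries were on one side of all vehicle libraries. The log2 fold changes there were 0.90 in OPCs, 0.87 in astrocytes, 0.58 in interneurons and 0.44 in oligodendrocytes, against -0.11 in DG, -0.049 in CA1 and -0.44 in microglia. In DG and CA1 the gap between the groups was smaller than the spread of the inhibitor libraries. In CA3 and subicular or cortical nuclei the groups overlapped. The difference between types was not tested.

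Rbfox2 was lower with the inhibitor in oligodendrocytes (-0.50) and higher in CA1 (0.75), DG (0.67), interneurons (0.62), CA3 (0.49), microglia (0.47) and subicular or cortical nuclei (0.39). The difference between types was not tested. In microglia the Context pair had the opposite sign, with a log2 ratio of -1.53 on 19 and 6 UMIs, and this difference was not tested either.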

How the results depend on the processing

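The baseline split of 5 members higher in neurons and 5 in glia stood under every alternative run. Calls of other splicing regulators in conditioned mice moved most with scaling. By library size they were 7 higher and 38 lower in DG, 6 and 30 in CA1, 6 and 10 in interneurons, 9 and 18 in oligodendrocytes and 1 and 12 in astrocytes, with 3 and 22 core spliceosome genes in DG. Per nucleus they were 3 and 38 in DG and 1 and 20 in CA1, with 1 higher in interneurons, 2 and 16 in oligodendrocytes, 0 and 12 in astrocytes, and 1 and 22 core genes in DG. DESeq2 called 8 lower in DG (5 core genes), 4 lower in CA1, 11 higher and 1 lower in interneurons, 13 and 0 in oligodendrocytes and 1 and 0 in astrocytes. The stricter gate gave 1 lower in interneurons, 3 lower in oligodendrocytes and 2 higher in astrocytes, and no filter 1 lower in astrocytes. Leaving out each library gave 10 to 26 higher and 6 to 17 lower in DG, 6 to 10 and 5 to 11 core genes, 11 to 20 and 4 to 10 in CA1, 1 to 2 lower in interneurons, 1 to 5 lower in oligodendrocytes, and 0 to 4 higher and 0 to 1 lower in astrocytes. The shares of all genes called in each run are not given beside these counts, so the counts describe the lists only. The cause was not tested.

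Member directions reversed per nucleus in conditioned mice for Celf4 in DG (-0.10) and CA1 (-0.28), Mbnl1 (-0.098) and Mbnl2 (-0.047) in interneurons, Mbnl1 (-0.067), Rbfox1 (-0.12) and Rbfox2 (-0.053) in subicular or cortical nuclei, Msi2 in oligodendrocytes (-0.064), Rbfox1 in OPCs (-0.13), and Mbnl2 (-0.21), Qk (-0.31) and Rbfox2 (-0.011) in microglia. By library size they reversed for Celf4 in CA1 (-0.20), Rbfox1 in OPCs (-0.034) and Qk in microglia (-0.085), in the Context pair for Celf4 in DG (-0.043), Rbfox1 in OPCs (-0.067) and Qk in microglia (-0.051), and at baseline for Msi2 in microglia (0.047). In conditioned mice both scalings lowered the median gene of each type relative to TMM scaling. Which scaling is nearer to the true levels was not tested.

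For CFC against Context, leaving out each library gave members called higher of 1 to 2 in DG, 0 to 3 in CA1, 0 to 2 in CA3, 0 to 1 in interneurons, 0 to 2 in oligodendrocytes and 0 to 1 in microglia. Members called lower were 0 to 3 in interneurons, 1 to 3 in subicular or cortical nuclei, 1 to 3 in oligodendrocytes, 0 to 1 in OPCs and 0 to 3 in microglia. The alternatives that leave out a Context library were chosen after seeing the data. The shares of all genes called in these alternative runs are not given here, so the counts describe the members only. DESeq2 called 0 higher in interneurons, 1 lower in subicular or cortical nuclei, 1 higher and 1 lower in oligodendrocytes, 0 lower in OPCs, and 0 higher and 0 lower in microglia. In DG the stricter gate called 1 higher. In microglia library-size scaling called 1 lower and no filter 0 lower. The stricter gate left too few subicular or cortical nuclei, so it gave no value there.

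The conditioned groups share replicate numbers 1 and 2. Same-numbered libraries correlated at 0.21 in DG, 0.14 in CA1, 0.13 in CA3 and 0.01 to 0.07 in the other types, over 2 pairs only, and the labels name no shared litter or day, so the numbers were not taken as pairs. With the replicate block the calls of other regulators were 26 higher and 14 lower in DG, 27 and 9 in CA1, 18 and 2 in interneurons, 22 and 5 in oligodendrocytes and 6 and 4 in astrocytes, with 11 and 11 core genes in DG, so no count moved by over 1.5 times. Depth limits glial values of Rbfox3 and Celf4, which rest on few UMIs, and values of Nova1 in some glial and neuronal types. In conditioned mice Nova1 had 5 to 27 UMIs per library in microglia and 15 to 26 in CA3, but 64 to 124 in OPCs.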
